A study of Columba livia with 9 samples.

Results

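The lncRNAs G22532, G33299, G32120, G18350, G18353 and G17184 are 6 of the 19129 lncRNAs listed in the bursa of Fabricius (BF) of pigeon squabs. The study paired each of them with a nearby lymphocyte gene: G22532 with CXCR4, G33299 with IL16, G32120 with ITGA4, G18350 and G18353 with BLNK, and G17184 with MYBL1. All 6 members were found in the values under these assembly numbers. They were picked by the study because their levels differed between the youngest and an elder stage and because their TPM followed that of a differentially expressed (DE) mRNA close by. The differences of the elder stages, 13 days (13D) and 26 days (26D), from 1 day (1D) and the likeness to the paired mRNA are therefore given here as a description, with no test. The difference between both elder stages was not the ground for picking them and was tested. Values of 13D and 26D did enter the choice, so this test is not fully independent of it.

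BFs of 9 female White-King pigeon squabs were sequenced as 1 rRNA-depleted, strand-specific library per squab, 3 libraries at each age. The squabs were 1 day old (1D), 13 days old (13D) or 26 days old (26D), and no treatment is named. Whole organ RNA was used, so that fewer cells of a type and less RNA per cell cannot be told apart. Levels are given in TPM, a length-corrected share of all transcripts in a library, on a scale that mRNAs and lncRNAs share. Read counts cannot be had from TPM, so that the depth of single values is unknown.

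The BF is the organ in which B lymphocytes of birds proliferate, diversify their antigen receptors and mature before they leave for the periphery. The paired mRNAs are those of genes known from lymphocytes. CXCR4 is the receptor of the chemokine CXCL12, and the integrin subunit encoded by ITGA4 binds VCAM1 and fibronectin. Both guide where lymphocytes settle. IL16 is the precursor of a cytokine that attracts CD4+ cells in mammals. BLNK is the adaptor that links SYK to PLCG2 and BTK below the B cell receptor, and MYBL1 encodes a transcription factor of the MYB family found in germinal centre B cells of mammals. lncRNAs are transcripts without coding capacity, and some of them act on genes close by. No role of the 6 lncRNAs themselves is known from the sources used here. Their sequences and positions were not analysed here.

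The libraries differed by factors common to most transcripts. Median-of-ratios factors over 10027 mRNAs lay between 0.833 and 1.43 in 8 of the 9 libraries and at 0.485 in 26D replicate 1. The most abundant lncRNA, G17924, held between 13.7% and 38.9% of all TPM, with the highest share in 26D replicate 1. Over all lncRNAs the median log2 fold change of 13D over 1D was 0.05. The medians of 26D were -0.65 relative to 1D and -0.72 relative to 13D. After each library was divided by its factor (median-of-ratios scaling), these 3 medians were -0.03, -0.27 and -0.25. Of the 13 listed B lineage markers, 12 were over 0.5 TPM in all 9 libraries, as were 10027 of all 13072 mRNAs. So were 10 of 10 proliferation, 9 of 10 fibroblast and matrix, 8 of 9 myeloid and 7 of 11 T lineage markers. This count therefore does not tell the tissue.

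All 6 lncRNAs had their lowest mean level at 1D. G18353 was the most abundant, with a mean over the 9 libraries of 14.7 TPM, above 95.9% of the listed lncRNAs. G18350 averaged 4.76 TPM, above 83.9% of them. The other members averaged 1.12 TPM (G33299), 1.03 TPM (G22532), 0.964 TPM (G17184) and 0.861 TPM (G32120), near the middle of the list, between its 48.9 and 54.6 percentiles. Each was over 0.1 TPM, the threshold for expressed lncRNAs, in all 9 libraries except G32120, which missed it in 1 library of 1D.

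**Figure D1:**
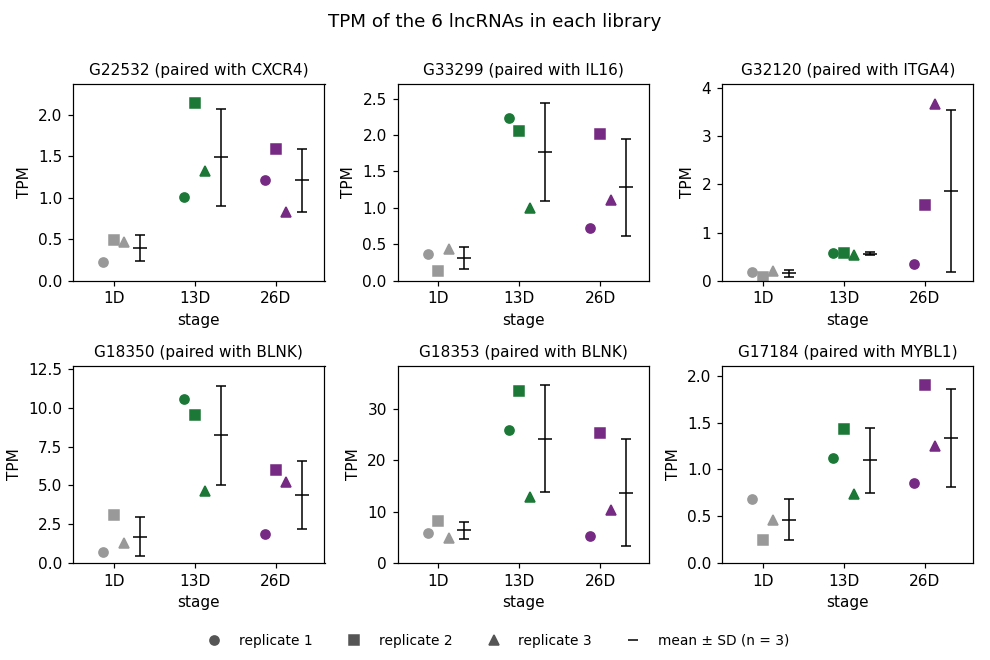
TPM of the 6 lncRNAs (vertical axes from 0) in each library of 1D, 13D and 26D (horizontal axes), with marker shapes for the replicate number and black bars for mean ± SD (n = 3). The 3 libraries of 13D lie above those of 1D in every panel, and G32120 reaches 3.67 TPM in 26D replicate 3.

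G22532, the lncRNA paired with CXCR4, was measured at 0.221, 0.494 and 0.471 TPM in replicates 1, 2 and 3 of 1D, an order of libraries kept throughout. At 13D it had 1.01, 2.14 and 1.32 TPM, and at 26D 1.21, 1.59 and 0.828 TPM. All 6 elder libraries were above those of 1D, while both elder stages overlapped. The stage means were 0.395 ± 0.152, 1.49 ± 0.587 and 1.21 ± 0.383 TPM, youngest to oldest (SD, n = 3 each). Its rank among all lncRNAs, which does not depend on the scale of a library, lay between the 19.05 and 43.65 percentiles at 1D and between 47.28 and 80.16 at the elder stages. The share of all lncRNAs that separate in this way was not computed. The member had been picked for differing from 1D, so nothing is read from this separation.

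G33299, next to IL16, had 0.369, 0.134 and 0.429 TPM at 1D, and 2.23, 2.06 and 0.997 TPM at 13D. At 26D it had 0.721, 2.02 and 1.11 TPM. Again no elder library fell into the range of 1D. The means were 0.311 ± 0.156, 1.76 ± 0.669 and 1.28 ± 0.665 TPM at 1D, 13D and 26D (SD, n = 3 each). On deposited TPM, 13D replicate 3 and 26D replicate 1 were the lowest of their stages. After median-of-ratios scaling, 26D replicate 3 was the lowest of 26D (1.16, against 1.49 in replicate 1).

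G32120, paired with ITGA4, was the faintest member at 1D, with 0.183, 0.0752 and 0.199 TPM. At 13D its libraries were nearly equal, with 0.577, 0.582 and 0.537 TPM. At 26D they were spread over 0.352, 1.57 and 3.67 TPM, so that 26D replicate 1 was below all of 13D and the other 2 libraries above. Its means were 0.152 ± 0.0672 TPM at 1D, then 0.565 ± 0.0246 and 1.87 ± 1.68 TPM at the elder stages 13D and 26D (SD, n = 3 each). Its percentile among lncRNAs at 26D, 58.92 to 83.26, was above that in every library of 13D, 36.06 to 49.1. The share of all lncRNAs for which this holds was not computed.

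The BLNK-paired lncRNAs G18350 and G18353 had their highest means at 13D. G18350 had 0.673, 3.11 and 1.31 TPM at 1D. Its 13D libraries held 10.6, 9.56 and 4.61 TPM, and its 26D libraries 1.86, 5.97 and 5.24 TPM (means 1.70 ± 1.26, 8.24 ± 3.19 and 4.36 ± 2.19 TPM from the youngest stage to the oldest, SD, n = 3 each). G18353 had 5.93, 8.24 and 4.82 TPM at 1D. Its 13D libraries held 26.0, 33.6 and 13.0 TPM, and its 26D libraries 5.27, 25.4 and 10.4 TPM (means 6.33 ± 1.75, 24.2 ± 10.5 and 13.7 ± 10.4 TPM, SD, n = 3 each). For both, the libraries of 13D were all above those of 1D, while 26D replicate 1 fell within the range of 1D. The level of G18350 as a percentage of that of G18353 varied between 11.4% and 50.6% over the 9 libraries, with the lowest value in 1D replicate 1 and the highest in 26D replicate 3, and the stages overlapped. The number G18352 lies between both names, and G18351 is not among the listed lncRNAs. G18352 had 2.83, 2.87 and 1.53 TPM at 1D. Its 13D libraries held 8.37, 13.5 and 2.21 TPM, and its 26D libraries 1.85, 7.45 and 3.94 TPM. It was thus highest in the same library as G18353, 13D replicate 2, although 13D replicate 3 fell within its range at 1D.

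G17184, paired with MYBL1, had 0.684, 0.246 and 0.459 TPM at 1D. It had 1.13, 1.43 and 0.732 TPM at 13D, and the 26D libraries held 0.855, 1.90 and 1.25 TPM. The lowest library of 13D was close to the highest of 1D. Its means were 0.463 ± 0.219, 1.09 ± 0.348 and 1.33 ± 0.529 TPM at 1D, 13D and 26D (SD, n = 3 each), with the highest mean at 26D, as for G32120. The means of the other 4 members were highest at 13D, but for none of the 6 did the deposited TPM of 13D and 26D separate. By percentile among lncRNAs, G17184 at 26D, 63.46 to 74.64, was above all libraries of 13D, 49.76 to 55.56. A percentile also rises where other lncRNAs fall. After median-of-ratios scaling the median log2 fold change of all lncRNAs in 26D vs. 13D was -0.25. The share of all lncRNAs that separate by percentile was not computed, so nothing is read from this separation or that of G32120.

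Between 13D and 1D, the log2 fold changes of TPM + 0.1 were 2.37 for G18350, 2.19 for G33299, 1.85 for G18353, 1.67 for G22532, 1.44 for G32120 and 1.12 for G17184. Their median was 1.76, against 0.05 over all lncRNAs. All libraries of 13D were above all of 1D for 6 of the 6 members, and for 5.58% of all lncRNAs. Between 26D and 1D, they ranged from 0.84 (G18353) to 2.53 (G32120), with a median of 1.40 against -0.65 over all lncRNAs. The libraries of 26D were entirely above those of 1D for 4 members, and for 1.42% of all lncRNAs, with G18350 and G18353 as the exceptions. After median-of-ratios scaling this was the case for all 6 members, and for 4.71% of all lncRNAs. Both comparisons use the same 1D libraries and both served to pick the members, so nothing is read from these counts. Over all lncRNAs, limma (adjusted p under 0.05 and an over 2-fold change) called 0% at 13D or 26D relative to 1D. Before adjustment, p was under 0.05 for 1994 lncRNAs at 13D (10.4%) and 3187 at 26D (16.7%). When only lncRNAs over 0.1 TPM in at least 3 libraries were tested, limma called 122 at 13D and 435 at 26D.

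Fold changes on this scale differ from ratios of mean TPM, since 0.1 TPM is added and logarithms are averaged. The ratio of mean TPM of G32120 at 26D over 1D was 12.3, while its log2 fold change of 2.53 stands for a 5.78-fold change. Its log2 fold change at 26D was 1.82 without 26D replicate 3 and 3.36 without 26D replicate 1. That of G18353 for the same stages was 0.26 without 26D replicate 2 and 1.38 without 26D replicate 1.

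**Figure D2:**
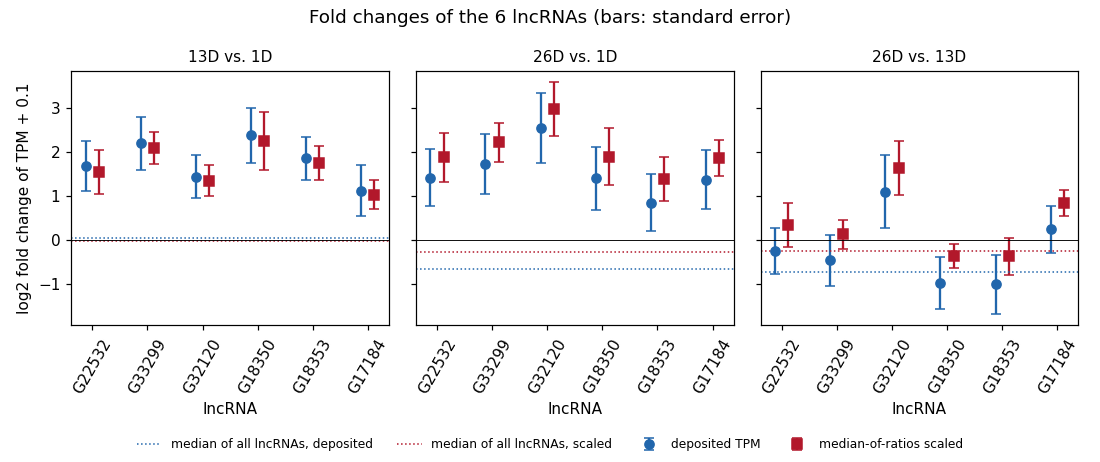
log2 fold changes of TPM + 0.1 (vertical axis) of the 6 lncRNAs in the 3 comparisons, on deposited TPM (circles) and after median-of-ratios scaling (squares), with standard errors as bars and the medians of all lncRNAs as dotted lines. All members lie above 0 against 1D, while in 26D vs. 13D they lie on both sides, between -1.002 and 1.09 on deposited TPM.

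Between 26D and 13D no member passed the test. limma gave log2 fold changes of 1.09 for G32120 (standard error 0.83, 95% interval -0.91 to 3.09, adjusted p = 0.507) and 0.24 for G17184 (0.53, -1.04 to 1.52, adjusted p = 0.780). G22532 had -0.26 (0.52, -1.51 to 0.99, limma adjusted p = 0.758) and G33299 had -0.47 (0.58, -1.87 to 0.94, limma adjusted p = 0.621). For G18350 and G18353 the values were -0.98 (0.60, -2.41 to 0.46) and -1.002 (0.67, -2.62 to 0.61), both with a limma adjusted p = 0.501. Of the 6 members 0 were called by limma, as were 0% of all lncRNAs, and 0 had an unadjusted p under 0.05, against 1097 of all lncRNAs or 5.73%. For 0 of 6 members, and for 0.523% of all lncRNAs, were the 26D libraries all above those of 13D. The intervals all include changes of more than 2-fold in TPM + 0.1 and do not show that the levels were equal. Among the fold changes of all lncRNAs the members lay between the 30.4 (G18353) and the 98.6 (G32120) percentile. Without 26D replicate 3 the value of G32120 was 0.39, and without 26D replicate 1 it was 1.92. After median-of-ratios scaling the log2 fold changes of G22532 and G33299 turned positive, at 0.34 and 0.13, and those of G32120 and G17184 were 1.63 and 0.83. On that scale the 3 libraries of 26D were all above those of 13D for G32120 and G17184, as for 2.05% of all lncRNAs, while limma adjusted p = 0.729 for both.

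The paired mRNAs were far more abundant than the lncRNAs. CXCR4 had 168, 170 and 179 TPM at 1D. Its 13D libraries held 395, 534 and 325 TPM, and its 26D libraries 354, 398 and 238 TPM. All elder libraries exceeded those of 1D, as for G22532. BLNK had 142, 105 and 131 TPM at 1D. Its 13D libraries held 300, 310 and 155 TPM, and its 26D libraries 125, 277 and 181 TPM. On deposited TPM, 26D replicate 1 was in the range of 1D, as for G18350 and G18353. After median-of-ratios scaling, BLNK in that library was 257, above all of 1D (at most 126). IL16 had 46.9, 44.8 and 44.3 TPM at 1D. At 13D it had 132, 150 and 63.3 TPM, and at 26D it had 76.3, 101 and 66.4 TPM. MYBL1 had 48.9, 20.3 and 40.3 TPM at 1D, its 13D libraries 80.9, 99.1 and 81.4 TPM, and its 26D libraries 76.0, 118 and 74.4 TPM. For both, every elder library was above every library of 1D. ITGA4 had 36.6, 21.5 and 16.8 TPM at 1D. The 13D libraries held 47.3, 38.4 and 39.4 TPM, and the 26D libraries 28.6, 48.5 and 99.7 TPM. On deposited TPM, ITGA4 shared with G32120 the narrow range at 13D, the low value in 26D replicate 1 and the high value in 26D replicate 3. After median-of-ratios scaling, ITGA4 in 26D replicate 1 was 59.0, above 50.6 in replicate 2. G32120 stayed lowest in 26D replicate 1 after scaling (0.725, against 1.64 and 3.86). The study had also chosen these mRNAs as DE, so their differences from 1D are a description. All 13D libraries were above those of 1D for the 5 partners, and for 5.03% of all mRNAs. All 26D libraries were above those of 1D for CXCR4, IL16 and MYBL1, and for 1.43% of all mRNAs. After median-of-ratios scaling, the 26D libraries were above those of 1D for all 5 partners, and for 11% of all mRNAs. Between both elder stages the log2 fold changes of the partners lay between -0.43 (IL16) and 0.31 (ITGA4), with limma adjusted p from 0.480 to 0.988, and 0 of 5 were called, against 0.00765% of all mRNAs (0 had an unadjusted p under 0.05, against 9.03% of mRNAs). For none of the 5 were the 26D libraries all above those of 13D, which held for 0.436% of all mRNAs. After median-of-ratios scaling this was so for ITGA4, as for G32120, and for 5.7% of all mRNAs.

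The lncRNAs held between 0.132% (G22532 in 1D replicate 1) and 10.9% (G18353 in 13D replicate 2) of the TPM of their partners. Relative to the paired mRNA, 5 of the 6 lncRNAs had a higher mean level at 13D than at 1D. This ratio is free of the scale of a library. G32120 reached 1.22%, 1.51% and 1.36% of the TPM of ITGA4 at 13D, above 0.498%, 0.349% and 1.18% at 1D. At 26D it reached 1.23%, 3.24% and 3.69%. G33299 had 1.70%, 1.37% and 1.58% of the TPM of IL16 at 13D, against 0.785%, 0.300% and 0.968% at 1D. G18353 stood at 8.68%, 10.9% and 8.35% of BLNK at 13D, against 4.18%, 7.86% and 3.68% at 1D. These 3 ratios did not overlap between 13D and 1D. The ratio of G18350 to BLNK, 3.19 ± 0.289% at 13D and 1.48 ± 1.31% at 1D (SD, n = 3 each), was separated by a gap smaller than the rounding, with 2.97% in both 13D replicate 3 and 1D replicate 2. In contrast, that of G22532 to CXCR4 overlapped, at 0.255%, 0.401% and 0.406% at 13D against 0.132%, 0.291% and 0.263% at 1D. G17184 was the exception to the higher mean, with 1.24 ± 0.299% of the TPM of MYBL1 at 13D, against 1.25 ± 0.133% at 1D (SD, n = 3 each). At 26D the separation from 1D differed: the ratios of G22532 and G32120 lay above those of 1D in all libraries, while those of G33299, G18350, G18353 and G17184 overlapped. Between 26D and 13D only the ratio of G18350 to BLNK separated among the 6, with 1.49%, 2.16% and 2.89% at 26D below 3.52%, 3.09% and 2.97% at 13D. No test of these ratios was made. How often the ratios of other pairs separate was not computed, and the members had been picked for differences from 1D. Nothing is therefore read from which ratios separated. With a pseudocount added to both values, 0.5 TPM for lncRNAs and 1 TPM for mRNAs, the mean log2 ratios to CXCR4 and to ITGA4 were lower at 13D than at 1D (differences of -0.12 and -0.07), so that the direction for G22532 and G32120 depends on the pseudocount. That to MYBL1 differed by -0.59. For G33299 and IL16 the difference from 1D was 0.22 at 13D and 0.28 at 26D, against 1.33 and 1.26 without a pseudocount.

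**Figure D3:**
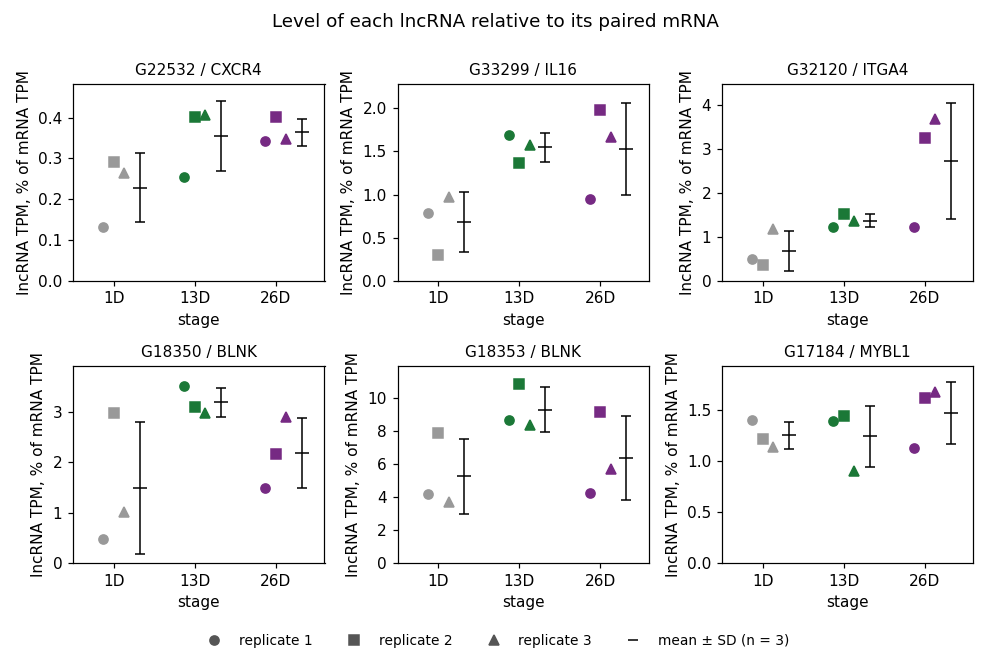
TPM of each lncRNA as a percentage of the TPM of its paired mRNA (vertical axes from 0) in each library of the 3 stages (horizontal axes), with marker shapes for the replicate number and black bars for mean ± SD (n = 3). G17184 holds nearly the same mean share of MYBL1 at 13D and 1D (1.24% and 1.25%), whereas G32120 reaches 3.69% of ITGA4 in 26D replicate 3.

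The likeness of each lncRNA to its paired mRNA was compared with that to all 10027 mRNAs over 0.5 TPM in all libraries. Likeness was measured as the root mean square (RMS) difference between profiles of log2 values over the 9 libraries, each centred on its own mean, so that a low value means a similar course. MYBL1 was the 2nd closest mRNA to G17184 (0.24 on the log2 scale, against a median of 0.83 over all mRNAs). CXCR4 was the 6th closest to G22532 (0.36, median 1.05) and ITGA4 the 8th closest to G32120 (0.74, median 1.38). BLNK was the 56th closest to G18353 (0.54) and the 88th closest to G18350 (0.86), and IL16 the 89th closest to G33299 (0.58). The pairs had been picked for this likeness, so that low ranks follow from the choice. The order among the pairs is a description of these 9 libraries.

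When each library was instead set against the mean of its own stage, on deposited TPM, all 6 paired mRNAs ranked farther away. These deviations still hold the factor common to a library, such as 0.485 in 26D replicate 1, and were not computed after scaling. CXCR4 was then the 31st closest mRNA to G22532 and BLNK the 235th closest to G18353. ITGA4 ranked 829 for G32120, BLNK 1034 for G18350, MYBL1 1832 for G17184 and IL16 5216 for G33299. Within stages, IL16 was thus no closer to G33299 than the median mRNA (RMS 0.387, against a median of 0.379). By Pearson's r of TPM over all 9 libraries, the paired mRNAs ranked between 1 (CXCR4) and 58 (BLNK for G18350), with r from 0.902 to 0.961. The study had kept only pairs above a cut of this correlation, so high r follow from the choice.

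Across the 30 combinations of member and paired mRNA, G22532, G32120, G18353 and G17184 were closest to their own partner. The pairs had been picked for likeness, so this closeness is a description. G33299 was closer to MYBL1 (0.49) than to IL16 (0.58), and G18350 was closer to IL16 (0.80) than to BLNK (0.86). The distances of G18353 to BLNK and to IL16 were nearly equal (0.54 and 0.55).

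**Figure D4:**
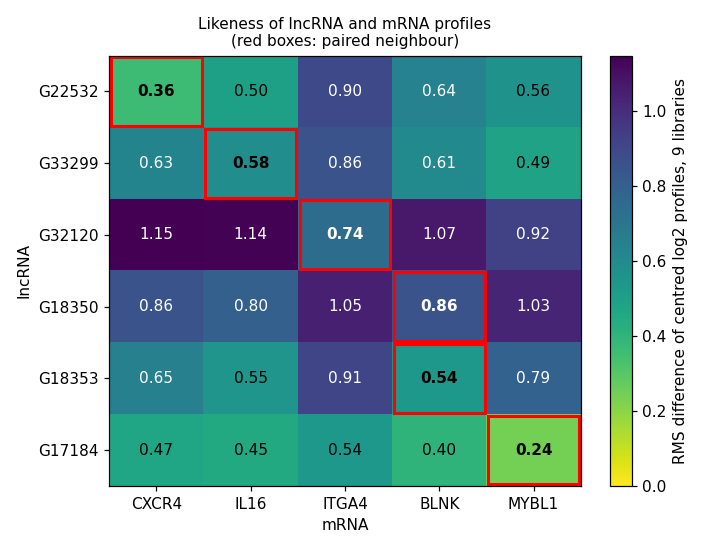
RMS difference of centred log2 profiles over the 9 libraries between the 6 lncRNAs (vertical axis) and the 5 paired mRNAs (horizontal axis), with lower values in lighter colours and red boxes around the pairs. G17184 and MYBL1 are the closest of all combinations at 0.24, and G32120 is nearest to ITGA4 (0.74), with 0.92 or more to the other 4 genes. The pairs had been picked for likeness.

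For each member, some other feature followed it more closely than its partner did. The 3 closest mRNAs with a gene symbol were COMMD2 (0.30), PTPRCAP (0.34), which encodes a protein associated with CD45, and CXCR4 for G22532. For G33299 they were PRKCQ (0.28), the protein kinase C theta of lymphocyte signalling, FMN2 (0.31) and TAGAP (0.32), a GTPase-activating protein of activated T cells. PRKCQ had 4.61, 2.33 and 3.48 TPM at 1D. Its 13D libraries held 26.3, 25.5 and 12.5 TPM, and its 26D libraries 10.4, 18.4 and 17.8 TPM. On deposited TPM, 13D replicate 3 and 26D replicate 1 were lowest of their stages, as for G33299. These libraries also had the smallest median-of-ratios factors of their stages, 0.863 and 0.485. For G32120 they included JAKMIP1 (0.70) and SOD3 (0.71), an extracellular superoxide dismutase, with 16.1 TPM of SOD3 in 26D replicate 3 against at most 7.50 TPM in the other libraries. NEBL (0.50), CHGB (0.53) and FNDC5 (0.55) were closest to G18350, and DENND5B (0.27), HDAC9 (0.37) and LRRC8D (0.39) to G18353. G17184 was closest to CDH2 (0.20), the gene of N-cadherin, then to MYBL1 and to IGF2R (0.26). Among lncRNAs, G38210 was one of the 2 closest to both G18350 (0.43) and G18353 (0.22). The other was G28361 (0.42) for G18350 and G18346 (0.25) for G18353. The lncRNAs closest to the other members were G34688 (0.29) and G2961 (0.34) for G22532, G28837 (0.25) and G18345 (0.33) for G33299, G37308 (0.61) and G7656 (0.64) for G32120, and G22109 (0.32) and G21809 (0.34) for G17184.

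Genes that act with the partners were counted from 3 lists. Of 30 listed genes of antigen receptor signalling, the pathway of BLNK, 3 rose at 13D over 1D, none fell and 27 did not pass. The median log2 fold change was 0.58, against 0.00 over all mRNAs. Of all mRNAs 8.17% were called in that comparison, 1.43% higher and 6.74% lower. PIK3CD, a catalytic subunit of phosphoinositide 3-kinase, had 71.9, 99.3 and 37.6 TPM at 13D, against 24.9, 12.6 and 36.4 TPM at 1D (log2 fold change 1.497, standard error 0.42, limma adjusted p = 0.0106). RASGRP3, an activator of RAS, had a log2 fold change of 1.31 (limma adjusted p = 0.0133). CD79B, the beta chain of the B cell receptor complex, had 429, 515 and 407 TPM at 13D, against 178, 171 and 290 TPM at 1D (1.11, limma adjusted p = 0.0342). After median-of-ratios scaling, CD79B no longer passed (limma adjusted p = 0.0656), although 6 genes of the list did. Of all 13072 mRNAs, 1352 were then called, in either direction. The count of 3 was 0 without 13D replicate 1 or without 13D replicate 2, 1 without 1D replicate 2 and 8 without 13D replicate 3. In these settings, in the same order, 443, 412, 1518 and 507 of all mRNAs were called.

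Of 24 listed lymphocyte transcription factors, 3 rose at 13D over 1D and none fell. Their median log2 fold change was 0.75. MYB, a paralogue of MYBL1, had 68.7, 53.7 and 25.8 TPM at 13D, against 25.3, 9.97 and 19.4 TPM at 1D (log2 fold change 1.40, limma adjusted p = 0.0233). The third family member MYBL2, which acts in dividing cells, rose by 1.34 on the log2 scale (limma adjusted p = 0.0399). BCL6, a transcriptional repressor found in germinal centre B cells, rose by 1.25 (limma adjusted p = 0.0343). This count was 0 without 1D replicate 2, 13D replicate 1 or 13D replicate 2, where 1518, 443 and 412 of all mRNAs were called. In the list of lymphocyte migration and adhesion, which holds partners of CXCR4 and ITGA4, 0 of 21 listed genes passed limma's thresholds at 13D over 1D, and their median was 0.51. An unadjusted p under 0.05 was seen for 4 of these 21 genes, 13 of the 30 of antigen receptor signalling and 12 of the 24 transcription factors, against 19.7% of all mRNAs. CD79B, PIK3CD, RASGRP3 and BCL6 are among the genes the study picked from these same squabs.

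At 26D relative to 1D, 0 of 30 genes of antigen receptor signalling and 0 of 21 genes of migration and adhesion passed limma's thresholds, and 1 of 24 transcription factors fell, against 13.1% of all mRNAs called, 0.513% higher and 12.6% lower. Unadjusted p were under 0.05 for 1, 4 and 2 genes of these lists, against 25.5% of all mRNAs. Their median log2 fold changes were 0.04, -0.01 and 0.10, against -0.52 over all mRNAs. The factor was KLF2, a regulator of lymphocyte trafficking, with 0.973 to 6.16 TPM at 26D and 5.17 to 14.6 TPM at 1D (log2 fold change -1.64, limma adjusted p = 0.0436), named after its values were seen, and its libraries of 26D and 1D overlapped. With median-of-ratios scaling 2, 3 and 2 genes of the lists were called, all higher at 26D, so these calls depend on the scaling. Of all 13072 mRNAs, 999 were then called, in either direction. Between both elder stages 0 genes of the 3 lists were called by limma, where 0.00765% of all mRNAs were, and 5, 2 and 5 genes had an unadjusted p under 0.05, against 9.03% of all mRNAs. The medians were -0.69, -0.43 and -0.72, against -0.53 over all mRNAs.

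The levels of cell type markers differed between the same libraries. The summed TPM of the 13 listed B lineage markers lay between 306 and 570 at 1D, between 698 and 1020 at 13D and between 497 and 876 at 26D. That of 10 fibroblast and matrix markers lay between 943 and 2563 at 1D, between 290 and 539 at 13D and between 112 and 484 at 26D. limma called 3 B lineage markers higher and 8 matrix markers lower in 13D vs. 1D, where 1.43% and 6.74% of all mRNAs were called in these directions. At 26D over 1D it called 2 higher and 10 lower, where 0.513% and 12.6% of all mRNAs were called in these directions. After median-of-ratios scaling the counts were 3 and 5, where 999 of all 13072 mRNAs were called in either direction. In 26D replicate 3, in which G32120 and ITGA4 were highest, the 11 T lineage markers summed to 82.1 TPM, against 29.0 and 41.7 TPM in the other libraries of 26D, and the 9 myeloid markers to 220 TPM, against 49.7 and 81.5 TPM. Smooth muscle (156 against 17.0 and 36.3 TPM) and endothelial markers (96.9 against 20.6 and 34.5 TPM) were higher in that library too. So were fibroblast and matrix markers (484 against 112 and 158 TPM). The B lineage markers were not, with 594 TPM against 497 and 876 TPM. After median-of-ratios scaling they were lowest in that library, at 624 against 1024 and 914. The T lineage markers were then at 86.2 against 59.8 and 43.5. CD5 was the only one of the 11 T lineage markers listed at 0 in any library, and none of the 9 myeloid markers was. Summed proliferation markers lay between 359 and 906 TPM at 1D, 954 and 1551 TPM at 13D and 554 and 893 TPM at 26D, and limma called 2 of the 10 higher at 13D over 1D. Smooth muscle markers lay between 289 and 639 TPM at 1D, 52.4 and 131 TPM at 13D and 17.0 and 156 TPM at 26D, with 4 of 5 called lower at each elder stage. Endothelial markers lay between 93.9 and 182 TPM at 1D, 39.8 and 78.1 TPM at 13D and 20.6 and 96.9 TPM at 26D, with 0 and 3 of 8 called lower at 13D and 26D. Epithelial markers lay between 244 and 468 TPM at 1D, 199 and 322 TPM at 13D and 106 and 213 TPM at 26D, with 2 and 4 of 7 called lower. The 4 erythroid and thrombocyte markers summed to at most 6.73 TPM at 1D, and at the elder stages 13D and 26D to at most 1.82 and 1.35 TPM, with 1 and 2 called lower. After median-of-ratios scaling the lower calls at 26D were 2 of 5 for smooth muscle, 1 of 8 for endothelial and 1 of 4 for erythroid and thrombocyte markers. At 13D, 3 of 8 endothelial markers were then called lower, where 1352 of all 13072 mRNAs were called in either direction. The part of these cell types in the levels of the 6 lncRNAs was not tested.

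**Figure D5:**
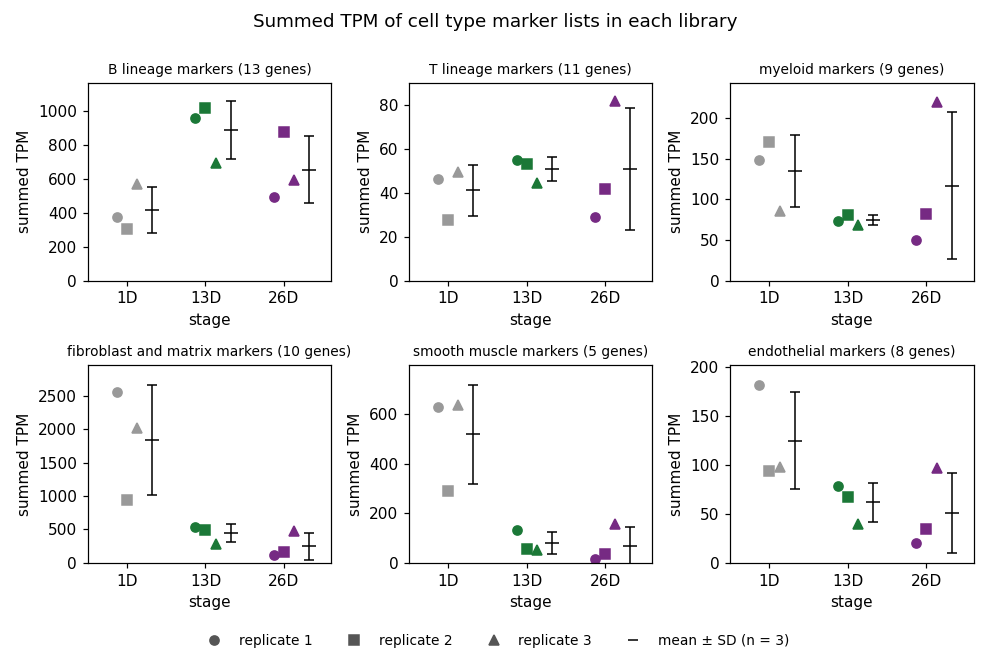
Summed TPM of 6 cell type marker lists (vertical axes from 0) in each library of the 3 stages (horizontal axes), with marker shapes for the replicate number and black bars for mean ± SD (n = 3). In 26D replicate 3 (triangles) T lineage markers reach 82.1 TPM and myeloid markers 220 TPM, the highest among the libraries of 26D.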

How the data were processed

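The authors mapped clean reads to the pigeon genome Cliv_1.0 with STAR 2.6.0c, assembled transcripts with Cufflinks 2.1.1, merged them with TACO, kept those without coding potential as lncRNAs and quantified both classes with Kallisto. The deposited TPM values were used for lncRNAs over 0.1 TPM and mRNAs over 0.5 TPM in at least 1 library. Tests used limma 3.58.1 in R 4.3.3 (eBayes with trend) between 2 stages at a time on log2(TPM + 0.1) for all 19129 lncRNAs and log2(TPM + 0.5) for all 13072 mRNAs, with 6 libraries per fit. A feature was called where its change was over 2-fold and its p, adjusted after Benjamini-Hochberg, below 0.05. The authors used edgeR, which needs read counts. Symbols came from RefSeq (assembly bColLiv1.pat.W.v2) for 12387 mRNAs. That build differs from the authors', so no position is given. The limma fit was tested on simulated data. Genes were named by rule: the members, their partners, per list and comparison up to 4 called mRNAs with the largest change and no overlap, and per member the 3 mRNAs and 2 lncRNAs closest in profile. An item that this rule names is not reported here. The members and lists were chosen with earlier results of these data known. Figures were drawn with matplotlib 3.10.9 in Python 3.11.15. Alternatives were other pseudocounts, a filter, scaling, all 9 libraries in one fit, no trend, a replicate block and leaving out each library.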

Additional observations from a re-analysis of the deposited data

How the results depend on the processing

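Of 216 recomputed log2 fold changes of the 6 lncRNAs, 72 came from 4 settings that cannot move a fold change (the filter, all 9 libraries in one fit, no trend, the replicate block). Of the other 144, 4 changed direction, all in 26D vs. 13D, and 4 against 1D moved by more than 1 SD. Against 1D, 10 values crossed a 2-fold change, among them G17184 at 13D (1.12, against 0.73 with the larger pseudocount, 0.81 without 1D replicate 2 and 0.92 without 13D replicate 2), G18350 at 26D (1.39, against 0.91 without 1D replicate 1) and G18353 at 26D (0.84, against 1.37 after scaling and 1.38 without 26D replicate 1). With a pseudocount of 0.5 TPM, those in 13D vs. 1D were 1.13 (G22532), 1.45 (G33299) and 0.71 (G32120), and that of G22532 in 26D vs. 1D was 0.92. In 26D vs. 13D, median-of-ratios scaling turned G22532 to 0.34 and G33299 to 0.13. With a library left out, G22532 ranged from -0.49 to 0.022 (without 13D replicate 2) and G17184 from -0.031 (without 26D replicate 2) to 0.50. No member passed limma's thresholds in 26D vs. 13D in any of these settings.

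Counts of called lncRNAs, 0 in each comparison, were 122 and 435 in 13D vs. 1D and 26D vs. 1D with the filter on 3 libraries, 10 and 6 with median-of-ratios scaling, and 83 and 284 with all 9 libraries in one fit (1 in 26D vs. 13D). Without trend it was 2 in 13D vs. 1D. For mRNAs the 1068 in 13D vs. 1D became 703 with all 9 libraries and 412 to 1518 with a library left out. The 1709 in 26D vs. 1D became 999 after scaling and 571 to 2240 with a library left out. The 1 in 26D vs. 13D became 34 with the filter, 0 with scaling, with all 9 libraries and without trend, and 3 to 36 with a library left out.

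Among the gene lists, in 13D vs. 1D the counts of called mRNAs for antigen receptor signalling, migration and transcription factors were 3, 0 and 3. They became 6, 1 and 5 after scaling, where 1352 of all 13072 mRNAs were called. The first was 1 without trend and 0 to 8 with a library left out, the second 0 to 1, and the third 0 with all 9 libraries, 1 without trend and 0 to 4. In 26D vs. 1D the counts of 0, 0 and 1 became 2, 3 and 2 after scaling. The second was 1 with all 9 libraries and 0 to 1 with a library left out, and the third was 0 with the larger pseudocount and without trend, and 0 to 2. The cause of these shifts was not tested.

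Each library came from a different squab, so the replicate numbers mark no repeated measures of a squab. Whether libraries of the same number were processed together is not stated. The correlations of same-numbered libraries' deviations ranged from -0.28 to 0.42. Those of differently numbered libraries ranged from -0.37 to 0.27. With a replicate block, limma called 49 lncRNAs at 26D relative to 1D. Of all 13072 mRNAs it then called 926 at 13D relative to 1D, 481 at 26D relative to 1D and 14 between both elder stages. Among the lists, 6 genes of antigen receptor signalling, 1 of migration and 4 transcription factors passed at 13D relative to 1D. At 26D relative to 1D, 0 transcription factors passed. TPM carry no counts, so the counting error of the fainter members is unknown.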
